A study of Mus musculus with 4 samples.

Results

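The HoxB cluster is one of the 4 Hox gene clusters of the mouse genome. Its members were taken from the deposited count table by gene symbol: Hoxb2, Hoxb3, Hoxb4, Hoxb5, Hoxb6, Hoxb7, Hoxb8, Hoxb9 and Hoxb13, which are 9 of 25239 symbols in all. RNA had been sequenced from hindlimb bud cells of FVB mouse embryos at embryonic day 11.5. The labels give the genotype as wild-type apart from the reporter, which all 4 libraries share: H11 hsp68-hZRS(404G>A)-mCherry. In this insertion at H11 the hsp68 promoter drives mCherry, a red fluorescent protein, under the 404G>A form of the human ZRS, the limb enhancer of Shh. Anterior tissue was dissected and its mCherry+ cells sorted, central tissue was dissected and its mCherry- cells sorted, and each population gave 2 libraries. Position in the bud and reporter state therefore cannot be told apart in this design, and the labels do not say how many embryos entered a library or whether replicates came from separate litters. The p-values measure only the spread between these samples, which may be technical.

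Hox genes encode homeodomain transcription factors that give cells positional identity along the body axis. They lie in clusters in which genes at the 3′ end are in general activated earlier and more anteriorly in the body than genes at the 5′ end, and genes at the same relative place in different clusters form a paralogue group. In the limb bud the HoxA and HoxD clusters carry most of the patterning function. HoxB genes are best known from hindbrain, trunk and lateral plate mesoderm, the tissue from which the limb bud grows out.

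In anterior mCherry+ cells the genes from Hoxb2 to Hoxb8 were all lower than in central mCherry- cells, by 3.37-fold (Hoxb8) to 10.7-fold (Hoxb5), while Hoxb9, at the 5′ end of this contiguous block, was 1.76-fold higher. Hoxb13, which lies apart, was close to absent from both populations. Of 9 members 8 were tested, and 7 were called lower and 1 higher at an adjusted p under 0.05 (edgeR, quasi-likelihood F test, Benjamini-Hochberg over all 14610 tested genes). Among all tested genes 22.9% were called, 12.3% lower and 10.7% higher in anterior cells. The anterior and central libraries did not overlap in any of the 8 tested members, nor in 63.5% of all tested genes. Of the members, Hoxb2, Hoxb4, Hoxb5 and Hoxb7 passed the filter on low counts only through the central libraries, so that count describes the cluster and is no independent support. The median log2 fold change (anterior over central) was -2.75 over the 8 tested members and -0.0087 over all tested genes.

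**Figure D1:**
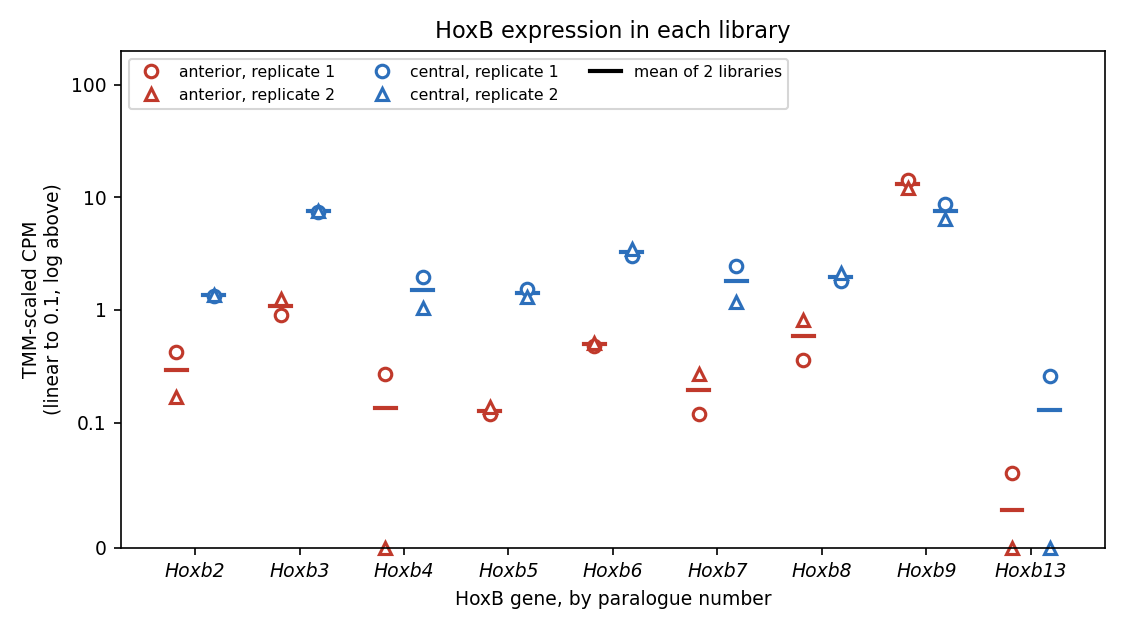
TMM-scaled CPM of each HoxB gene (vertical axis, linear up to 0.1 and logarithmic above) in the 2 anterior (red) and 2 central (blue) libraries, with replicates as circles and triangles and the mean as a bar. From Hoxb2 to Hoxb8 both anterior libraries lie under both central ones, Hoxb9 has the opposite order at 12.2 and 14.4 against 6.43 and 8.67, and Hoxb13 overlaps near 0.

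Libraries held 30080925 to 33257383 counts. Even numbers made up 72.8% to 75.6% of counts between 1 and 10, a pattern that counting each mate of a pair would leave, and the low counts given here may then rest on fewer fragments than their size states. The replicates of a group differed beyond sampling noise, with a chi-square per degree of freedom of 15.1 between the anterior and 8.49 between the central libraries on halved counts, and each was kept as a separate sample. CPM values below are TMM-scaled counts relative to library size, and 3 counts correspond to 0.0899 to 0.102 CPM. The labelled tissue was checked against its markers. Pitx1 and Tbx4, which mark hindlimb, were at 442 ± 11.2 and 231 ± 9.21 CPM in anterior and at 456 ± 37.5 and 254 ± 19.4 CPM in central cells, and the limb mesenchyme gene Prrx1 was at 696 ± 28.8 and 661 ± 28.2 (SD, n = 2 each), none of them called. Isl1, the other hindlimb gene listed, was called lower in anterior cells at 4.56 and 0.682 against 22.0 and 23.6 CPM (log2 fold change -3.09, edgeR adjusted p 0.00443). Of the 5 limb mesenchyme genes listed, 3 were called higher in anterior cells, beside 10.7% of all tested genes. These 3 were Msx1 (9.56-fold), Prrx2 (3.75-fold) and Twist1 (1.77-fold). The forelimb gene Tbx5 had 0 and 2 counts in the anterior and 82 and 44 in the central libraries.

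The central libraries also held more RNA of several other cell types. Calls in the lists below stand beside 12.3% lower and 10.7% higher in anterior cells among all tested genes. Summed over each marker list, myogenic genes (7 of 7 lower in anterior) were at 4.17 and 2.35 CPM in anterior and 143 and 142 CPM in central libraries, with Myog and Pax7 at 0 in both anterior ones. Ectoderm genes (9 of 10 lower) summed to 10.3 and 10.5 against 56.3 and 181 CPM, endothelial genes (7 of 9 lower) to 6.81 and 11.3 against 30.7 and 43.4 CPM, and Schwann and neural crest genes (2 of 3 tested lower, 6 listed, with Sox10, Foxd3 and Fabp7 at 0 in both anterior libraries and Fabp7 at 0 in the central ones too) to 6.42 and 5.66 against 25.6 and 20.0 CPM. Coelomic mesothelium genes (1 of 1 tested lower, 3 listed) summed to 0.0600 and 0 against 1.62 and 1.73 CPM, with Upk3b and Msln at 0 in both anterior libraries. Most of that was Wt1, which had 2 and 0 against 50 and 46 counts, a central level like those of Hoxb2, Hoxb4 and Hoxb5. Cartilage genes (4 of 6 tested lower, 7 listed) summed to 412 and 301 against 1503 and 1190 CPM. Neuronal genes (1 of 5 tested lower, 6 listed) were at 20.3 and 16.3 against 17.9 and 15.2 CPM, and myeloid genes (3 of 7 higher) at 30.4 and 23.9 against 15.2 and 15.5 CPM. Primitive erythroid genes ran the other way (8 of 8 tested higher in anterior, 9 listed), at 3294 and 8400 against 5.97 and 9.48 CPM, with Hba-a1 at 0 in every library. The part of these cell types in the HoxB differences was not tested. In the central replicates Hoxb2 to Hoxb8 together stood at 19.5 and 18.1 CPM, and their relation to any of these sums was not tested. In bulk libraries fewer cells that express a gene and less RNA per cell cannot be told apart.

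The cluster lies on chromosome 11 (GRCm38, the assembly also called mm10, which the submitters' processing notes name), with every HoxB gene on the plus strand in GENCODE M21. From the start of Hoxb9 to the end of Hoxb2 it covers 82.6 kb, in the order Hoxb9, Hoxb8, Hoxb7, Hoxb6, Hoxb5, Hoxb4, Hoxb3, Hoxb2, and Hoxb13 lies 74.0 kb beyond Hoxb9. Hoxb9 and Hoxb8, the pair across which the direction of the difference changed, are 5.3 kb apart. Within that stretch the widest gap between neighbouring members is the 12.1 kb from Hoxb5 to Hoxb4. The narrowest is the 1.3 kb from Hoxb8 to Hoxb7. These distances are those of GENCODE M21 and differ in RefSeq. There Hoxb8 begins at 96279401, nearer to Hoxb9, and Hoxb3 spans 96307101-96347930, which encloses Hoxb4.

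At the 3′ end, Hoxb2 (chr11:96350525-96354012), a gene of hindbrain patterning, had 14 and 5 counts in the anterior and 41 and 44 in the central libraries, or 0.420 and 0.170 against 1.33 and 1.36 CPM. The anterior libraries lay under the central ones, and the log2 fold change was -2.16 ± 0.60 (SE; edgeR adjusted p 0.0330). The call was lost in several alternatives: the adjusted p was 0.0517 by the DESeq2 Wald test, 0.114 against a 1.5-fold change, 0.173 without anterior replicate 2 (log2 fold change -1.67), 0.0913 without central replicate 1 and 0.0912 without central replicate 2, and ran from 0.0150 to 0.173 among all alternatives. It remained called at -2.95 on the log2 scale with anterior replicate 1 left out (adjusted p 0.0332). Hoxb3 (chr11:96323326-96347930), which also patterns hindbrain and pharyngeal region, was the most abundant of the genes that fell. It measured 0.899 and 1.26 CPM in anterior and 7.47 and 7.60 CPM in central libraries, from 30 and 37 against 230 and 246 counts. Its log2 fold change of -2.80 ± 0.29 (SE) had an edgeR adjusted p of 0.000248, the smallest in the cluster, and it stayed called under every alternative run.

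Reads over this end are the least certain in origin. The antisense gene Hoxb3os covers 52.9% of the annotated exon bases of Hoxb3 and 27.3% of those of Hoxb2. The sources used here do not state whether counting used strand, or which annotation it used. In RefSeq the span of Hoxb3 also encloses Hoxb4, and whether their exons share bases there was not examined. Hoxb3os itself had 3 and 0 counts in anterior and 7 and 7 in central libraries and was not tested. Hoxb5os, antisense across Hoxb5 and Hoxb6, shares 100 exon bases with Hoxb5 (3.59% of its exons). It had 0 and 0 counts in anterior and 17 and 16 in central libraries, at least 5.44-fold lower in anterior cells against a floor of 3 counts per library (edgeR adjusted p 0.0118). Like Hoxb5 it passed the filter only through the central libraries. Hoxb1, the gene beyond Hoxb2, had 0 and 0 against 2 and 4 counts.

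Hoxb4 (chr11:96318267-96321638), known for its capacity to expand blood stem cells, had 9 and 0 counts in the anterior and 60 and 34 in the central libraries. These are 0.270 and 0 against 1.95 and 1.05 CPM, and the groups did not overlap. The log2 fold change was -3.38 ± 0.94 (SE) with an edgeR adjusted p of 0.0322. Its size rests on the anterior library at 0: without anterior replicate 2 it was -2.45 (adjusted p 0.0620) and without anterior replicate 1 it was -8.53. Without central replicate 1 the adjusted p was 0.0935, against a 1.5-fold change it was 0.0896, and among all alternatives it ran from 0.00207 to 0.0935. Primitive erythroid markers summed to 3294 and 8400 CPM in the same anterior libraries, and a relation to Hoxb4 was not tested.

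Hoxb5 (chr11:96303336-96306121), which acts in lung, gut and the position of the shoulder girdle, had 4 and 4 counts in anterior against 47 and 42 in central libraries, or 0.120 and 0.136 against 1.53 and 1.30 CPM. The replicates of each population were close together and the populations far apart. The fitted log2 fold change of -3.43 ± 0.61 (SE; edgeR adjusted p 0.00479) was the largest in size among the members, but that order was not stable. Hoxb4 had the larger fall with limma-voom (-4.37 against -3.31), halved counts (-3.48 against -3.41), the replicate block (-3.66 against -3.42), without anterior replicate 1 (-8.53 against -3.33) and without central replicate 2 (-3.76 against -3.53). Hoxb7 had it without anterior replicate 2 (-3.86 against -3.51). Hoxb6 (chr11:96292476-96301569), a gene of lateral plate mesoderm whose promoter is used to drive Cre in the hindlimb field, had 16 and 15 against 93 and 112 counts. At 0.480 and 0.511 CPM in anterior and 3.02 and 3.46 CPM in central cells, it had a log2 fold change of -2.70 ± 0.40 (SE; edgeR adjusted p 0.00185). Both genes stayed called under every alternative that tested them.

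Hoxb7 (chr11:96286623-96290162), widely used as a marker of the Wolffian duct, had 4 and 8 counts in the anterior and 75 and 38 in the central libraries. Its 0.120 and 0.273 CPM in anterior cells lay under the 2.44 and 1.17 CPM of central cells, although the central replicates themselves stood apart. The log2 fold change was -3.19 ± 0.66 (SE) with an edgeR adjusted p of 0.00923. Without central replicate 1, the higher of that pair, it was -2.57 and no longer called (adjusted p 0.0687; 0.000532 to 0.0687 among all alternatives). With anterior replicate 2 left out it was -3.86.

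Hoxb8 (chr11:96281905-96285315) has a history in limb patterning, since its misexpression at the anterior margin of the forelimb bud induces an additional source of Shh there. It had 12 and 24 counts in anterior and 56 and 69 in central cells. The values were 0.360 and 0.818 against 1.82 and 2.13 CPM, with no overlap. Hoxb8 fell by 1.75 ± 0.51 (SE) on the log2 scale, the smallest fall of the block, and its edgeR adjusted p of 0.0400 was the closest to the threshold. The call was lost with the DESeq2 Wald test (adjusted p 0.0517), against a 1.5-fold change (0.160), without anterior replicate 1 (log2 fold change -1.26, adjusted p 0.177), without central replicate 1 (0.0590) and without central replicate 2 (0.113), in a range of 0.0129 to 0.177. Without anterior replicate 2 it was -2.44.

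Promoter sequence was matched in the RefSeq table (GRCm38.p6) for 2 of 9 members, Hoxb4 and Hoxb8, both of which fell. The 250 bases before the start used for each are shown on the plus strand. They allow these promoters of 2 jointly lower genes of the cluster to be compared. The RefSeq span of Hoxb8 begins further upstream, at 96279401, so the window shown may not be its only promoter. Capitals mark matches on either strand to AGGTCA (a sequence bound by retinoic acid receptors) and TATAAA (the TATA box). They also mark CCAAT (the site of the factor NF-Y) and TTTATG (a sequence bound by Cdx factors). The last motif marked is TGATNNAT (a composite site of Hox proteins with TALE partners). No match overlaps another.
Hoxb8 promoter, chr11:96281655-96281904: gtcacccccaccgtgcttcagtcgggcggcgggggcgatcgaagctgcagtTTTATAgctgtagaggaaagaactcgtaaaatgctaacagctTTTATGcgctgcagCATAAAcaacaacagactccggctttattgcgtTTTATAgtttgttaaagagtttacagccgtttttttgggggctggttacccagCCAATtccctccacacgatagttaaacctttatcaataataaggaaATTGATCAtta
Hoxb4 promoter, chr11:96318017-96318266: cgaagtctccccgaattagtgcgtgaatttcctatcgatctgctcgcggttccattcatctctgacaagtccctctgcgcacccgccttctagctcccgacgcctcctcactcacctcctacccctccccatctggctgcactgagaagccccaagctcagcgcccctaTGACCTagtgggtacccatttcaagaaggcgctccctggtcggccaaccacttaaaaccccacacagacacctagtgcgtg
The Hoxb8 window held 2 matches to TATAAA, 2 to TTTATG, 1 to CCAAT and 1 to TGATNNAT, and none to AGGTCA. The Hoxb4 window held 1 match to AGGTCA and none to the others. Over 32851 promoter windows of 300 bases in that table, 16.3% held AGGTCA, 13.6% TATAAA, 37.4% CCAAT, 11.9% TTTATG and 8.85% TGATNNAT.

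Hoxb9 (chr11:96271457-96276595) was the exception in direction. It was the most abundant member in anterior cells, while in central cells its counts were level with those of Hoxb3, at 7.55 ± 1.59 and 7.53 ± 0.09 CPM (SD, n = 2). With its paralogues it sets the posterior domain of Hand2, and through it Shh, in the forelimb bud. It had 479 and 357 counts in anterior and 267 and 208 in central libraries, or 14.4 and 12.2 against 8.67 and 6.43 CPM. Both anterior libraries were higher than both central ones. Hoxb9 rose by 0.81 ± 0.20 (SE) on the log2 scale (95% interval 0.36 to 1.27) with an edgeR adjusted p of 0.0192. Without anterior replicate 1 the rise was 0.69 and not called (adjusted p 0.0812), and against a change beyond 1.5-fold the adjusted p was 0.394, the top of a range that began at 0.00259.

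**Figure D2:**
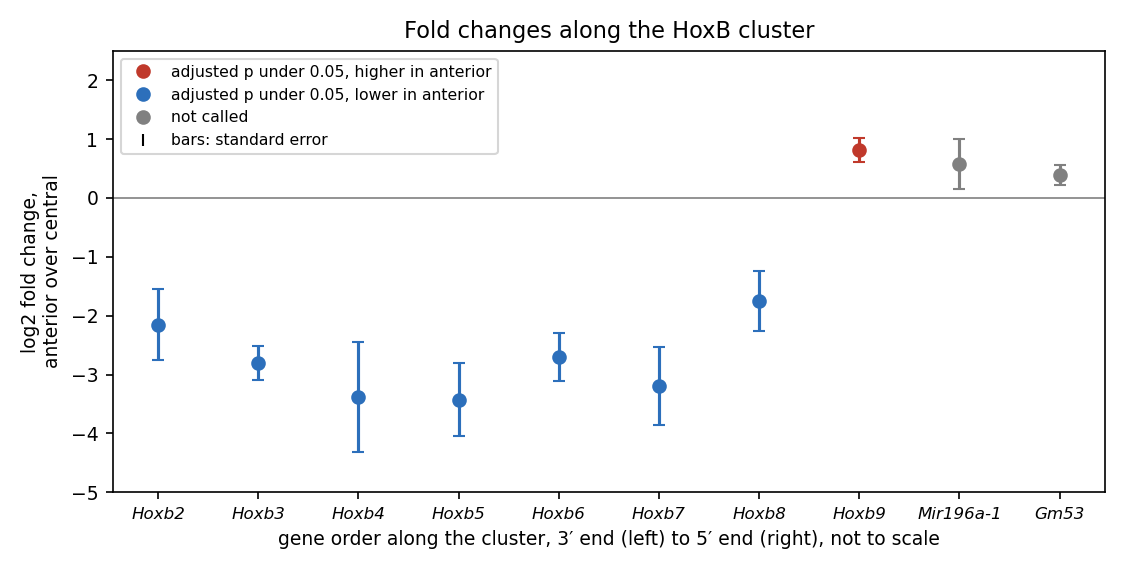
Log2 fold change of anterior over central cells (vertical axis, bars show the standard error) for genes in their order along the cluster from the 3′ end at left, not to scale. Hoxb2 to Hoxb8 lie between -3.43 and -1.75 (blue, called lower), Hoxb9 at 0.81 (red, called higher), and the noncoding genes beyond it at 0.58 and 0.39 (grey, not called).

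The noncoding genes next to Hoxb9 on its 5′ side were not called. Their fold changes were positive, as were those of 7135 of all 14610 tested genes. Mir196a-1 (chr11:96265164-96265265), the gene of the microRNA miR-196a, lies 6.2 kb from Hoxb9. It had 54 and 47 counts in anterior and 37 and 31 in central libraries, 1.62 and 1.60 against 1.20 and 0.958 CPM. Its groups did not overlap. The log2 fold change was 0.58 ± 0.42 (SE; 95% interval -0.38 to 1.53; edgeR adjusted p 0.374). Such counts are reads of longer RNA over the hairpin and do not measure the mature microRNA. Gm53 (chr11:96251105-96264868), a long noncoding RNA that ends 0.3 kb before Mir196a-1 and was chosen after its values were seen, measured 10.3 and 10.3 CPM in anterior and 7.57 and 8.09 CPM in central libraries. Its log2 fold change was 0.39 ± 0.17 (SE; edgeR adjusted p 0.145). Mir10a, the microRNA gene 1.0 kb from Hoxb4, had 0 counts in every library.

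MicroRNA genes of the Hox clusters are known to target Hox mRNAs, and cleavage of Hoxb8 mRNA by miR-196a is a textbook case. The mature sequences of the cluster (RefSeq, GRCm38.p6) are shown with the seed, bases 2 to 8, in capitals, followed by the 3′ UTR windows in HoxB mRNAs that pair with miR-196a, because that microRNA gene and its known target lie on either side of Hoxb9.
mmu-miR-196a-5p, chr11:96265187-96265208: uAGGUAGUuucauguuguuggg
mmu-miR-10a-5p, chr11:96317186-96317208: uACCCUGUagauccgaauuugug
Hoxb8 site, chr11:96284888-96284909, capitals for bases that pair by Watson-Crick rules: CCCAACAACATGAAACTgCCTA
Hoxb7 site, chr11:96289784-96289805, capitals for the seed match: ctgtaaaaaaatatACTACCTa
Hoxb6 site, chr11:96301373-96301394, capitals for the seed match: tggaaggagcacatACTACCTa
In the Hoxb8 3′ UTR 21 of 22 bases paired with miR-196a and the other 1 formed a G:U pair. A window with 22 paired or G:U positions was present in 2 of 13496 3′ UTRs of tested genes, and the other, in Rps6ka2, reached it with 10 G:U pairs. An exact seed match, ACTACCT, was present once each in the 3′ UTRs of Hoxb6 and Hoxb7 and in 6.98% of 13521 3′ UTRs. The seed match of miR-10a, ACAGGGT, was present once in Hoxb3 and in 14.9% of 3′ UTRs. Beside these letters stand the values already given: Hoxb6, Hoxb7 and Hoxb8 fell, and so did Hoxb2 to Hoxb5. The 3′ UTRs of Hoxb2 to Hoxb5 and of Hoxb8 hold no exact seed match to miR-196a. That of Hoxb9, which rose, holds none either. A part of miR-196a in these differences was not tested.

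Hoxb13 (chr11:96194316-96197447), a gene of tail bud and prostate, had 2 and 0 counts in anterior and 8 and 0 in central libraries. The groups overlapped at 0, the counts were under the filter, and without a filter it was not called (log2 fold change -1.91, edgeR adjusted p 0.632).

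Summed over the cluster, HoxB genes held 570 and 450 counts in the anterior and 877 and 793 in the central libraries. That was 0.00171% (95% exact binomial interval 0.00158% to 0.00186%) and 0.00150% (0.00136% to 0.00164%) of all anterior counts, against 0.00289% (0.00270% to 0.00309%) and 0.00247% (0.00230% to 0.00264%) of central ones. These intervals and those below cover counting error only, and are too narrow even for that if each mate of a pair was counted. Hoxb2 to Hoxb8 together stood at 2.67 and 3.17 CPM in anterior and 19.5 and 18.1 CPM in central cells, 6.44-fold more in the latter. Hoxb9 alone made up 84.0% (80.8% to 86.9%) and 79.3% (75.3% to 83.0%) of the cluster's counts in anterior libraries, but 30.4% (27.4% to 33.6%) and 26.2% (23.2% to 29.4%) in central ones. The HoxB share of all counts was 1.67-fold larger in central cells. In that sum Hoxb9 and Hoxb2 to Hoxb8 differed in opposite directions.

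**Figure D3:**
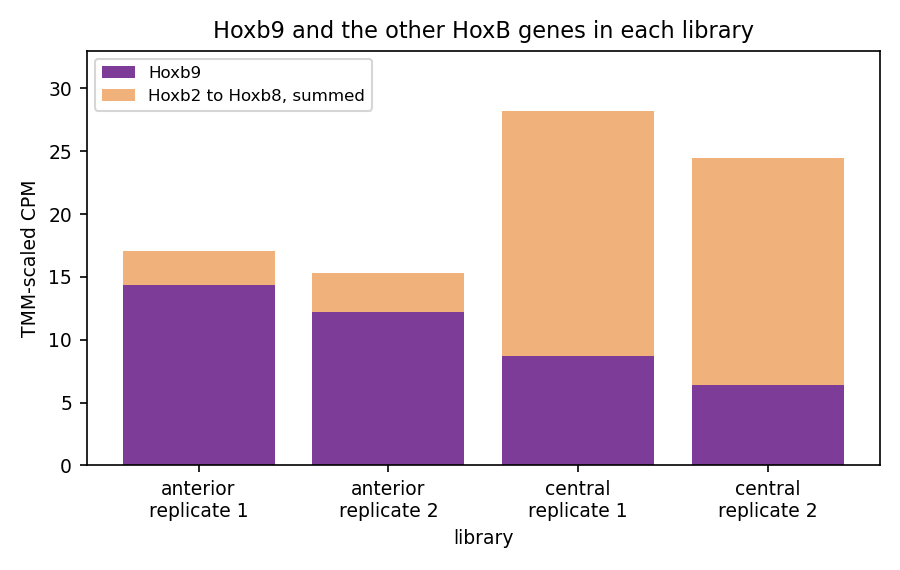
TMM-scaled CPM (vertical axis) of Hoxb9 (purple) and of Hoxb2 to Hoxb8 summed (orange), stacked, in each of the 4 libraries. The purple part is taller in the anterior libraries and the orange part shrinks from 19.5 and 18.1 CPM in central to 2.67 and 3.17 CPM in anterior libraries.

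Levels of different members were compared per length, as RPKM (CPM per kb of annotated exon). For Hoxb3 and Hoxb2, 52.9% and 27.3% of that length is shared with Hoxb3os on the other strand. If reads over shared bases were left out of the counting, their RPKM would be too low. The places of Hoxb3 and Hoxb2 in the orders below, also relative to Hoxb9, are therefore uncertain. In anterior cells Hoxb9 led at 5.15 ± 0.60 RPKM (SD, n = 2), clear of Hoxb3 at 0.254 ± 0.060, Hoxb6 at 0.252 ± 0.011 and Hoxb8 at 0.224 ± 0.123. From Hoxb3 down to Hoxb5, at 0.0460 ± 0.0042, every neighbour in the order Hoxb3, Hoxb6, Hoxb8, Hoxb7, Hoxb2, Hoxb4, Hoxb5 overlapped the next over its libraries. In central cells Hoxb9 led by less, at 2.93 ± 0.62 RPKM, and was followed by Hoxb3 at 1.77 ± 0.02, Hoxb6 at 1.65 ± 0.16 and Hoxb7 at 1.17 ± 0.58. There Hoxb9 and Hoxb3 were separate, Hoxb2 at 0.386 ± 0.006 lay clear under Hoxb5 at 0.507 ± 0.058, and all neighbours between Hoxb3 and Hoxb5 overlapped. Hoxb13 was last in both populations. Per length, Hoxb9 ranked 18 among the 38 Hox genes of the 4 clusters in anterior and 22 in central cells, and the other members ranked 27 to 38 in both.

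Within the Hox complement, the HoxB genes held 0.640% and 0.583% of all counts on the 38 Hox genes in anterior libraries and 1.58% and 1.40% in central ones. Of the other clusters, HoxA had 6 of 10 tested genes called higher and 0 lower (median log2 fold change 0.49). HoxC had 0 higher and 5 of 8 lower (median -0.73), and HoxD 3 higher and 2 lower of 8 (median 0.26). Those lower in HoxD were Hoxd3 (-1.57) and Hoxd4 (-0.74), and those higher were Hoxd10 (0.34), Hoxd12 (0.98) and Hoxd13 (1.59). Lower genes towards the 3′ end and higher genes towards the 5′ end were thus not particular to HoxB. The shares over all tested genes were 10.7% higher and 12.3% lower. For Hoxb5, the member with the largest fitted fall in the test on all 4 libraries, the paralogues were Hoxa5, called higher at 64.0 ± 1.05 against 34.5 ± 1.03 CPM (log2 fold change 0.89), and Hoxc5, called lower at 5.98 ± 0.95 against 9.78 ± 0.33 CPM (-0.71; SD, n = 2 each). For Hoxb9, Hoxa9 was called higher (log2 fold change 0.37, edgeR adjusted p 0.0157), while Hoxd9 at 0.36 (0.0510) and Hoxc9 at -0.42 (0.0766) were not called. Differences between paralogues were not tested. In the share of each paralogue group's RPKM, Hoxb3 stood at 28.1% and 26.3% in central and 4.23% and 6.08% in anterior libraries, and Hoxb7 stood at 28.1% and 14.3% against 1.41% and 3.16%. The limit on the RPKM of Hoxb3 holds here too. Hoxb9 contributed 8.04% and 5.69% of its group in anterior and 5.42% and 4.02% in central libraries.

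**Figure D4:**
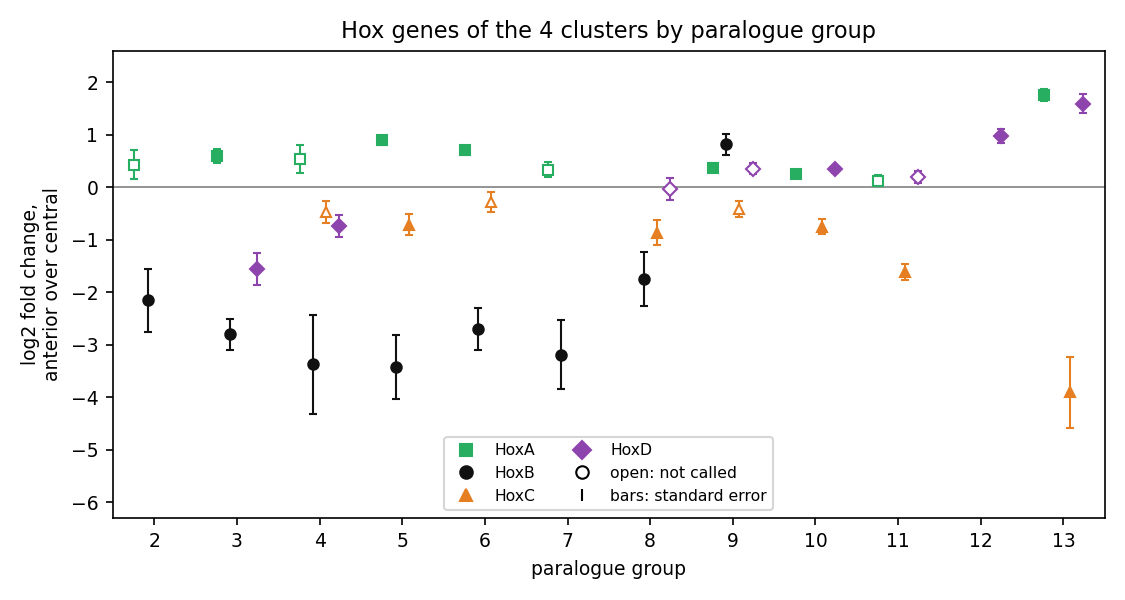
Log2 fold change of anterior over central cells (vertical axis, bars show the standard error) for each tested Hox gene by paralogue group, with the clusters by colour and shape and open symbols for genes not called. HoxB genes (black circles) of groups 2 to 8 lie under 0, at -1.75 or lower, and Hoxb9 lies above it at 0.81.

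Genes that flank the cluster on chromosome 11 had small fold changes where tested. Of 10 listed, 6 were tested and 1 was called, beside 22.9% of all tested genes. The called gene was Igf2bp1, an RNA-binding protein gene, at 657 and 647 CPM in anterior against 497 and 582 CPM in central libraries (0.27 ± 0.08 SE in log2 units, edgeR adjusted p 0.0411). Cbx1 (-0.08), Snx11 (0.07), Atp5g1 (-0.02), Ube2z (0.12) and Snf8 (-0.26) were not called, with 95% intervals inside -0.54 to 0.32 on the log2 scale. Skap1, Ttll6, Calcoco2 and Gip, the others, had at most 4 counts in any library.

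TALE homeodomain proteins bind DNA together with Hox proteins. Of 9 TALE genes, 5 were called lower and 0 higher in anterior cells, beside 12.3% lower and 10.7% higher among all tested genes. The median log2 fold change was -1.25 over the list. The largest falls were those of Meis1, with 200 and 52 against 2927 and 2586 counts (-4.46 ± 0.35 SE in log2 units, edgeR adjusted p 4.86e-05), and Meis2, with 368 and 60 against 3929 and 4230 counts (-4.27 ± 0.46 SE, adjusted p 0.000329). In both, every anterior library was far under every central one, and anterior replicate 2 was the lowest.

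Retinoic acid activates 3′ HoxB genes in the trunk and hindbrain. Of 18 genes of its pathway 15 were tested, and 2 were called higher and 5 lower (median log2 fold change -0.28). Over all tested genes 10.7% were called higher and 12.3% lower. Cyp26b1, which degrades retinoic acid in the distal bud, was higher at 645 and 702 against 321 and 398 CPM (0.90 ± 0.10 SE in log2 units, edgeR adjusted p 0.000366). The binding protein gene Crabp1 was higher at 114 and 187 against 70.3 and 68.7 CPM (1.12 ± 0.19 SE, adjusted p 0.00336). Among those lower, the retinol uptake receptor gene Stra6 measured 16.3 and 12.0 against 81.9 and 87.6 CPM (-2.58 ± 0.14 SE, adjusted p 6.25e-06). Cyp26a1 had 0 and 4 counts against 27 and 53 (-4.20 ± 0.96 SE, adjusted p 0.0145), and passed the filter only through the central libraries.

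The genes whose profile over the 4 libraries was most like that of Hoxb5 were Abi3bp, St8sia6 and Cacna1e, by Euclidean distance between centred log2 CPM values among 1948 tested genes within 2-fold of its mean level. Their distances were 0.17, 0.25 and 0.34. Abi3bp had 4 and 4 counts in anterior and 41 and 38 in central libraries, close to the 4 and 4 against 47 and 42 of Hoxb5. With 4 libraries in 2 populations, such likeness is a description of these samples.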

How the data were processed

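RNA-seq of 4 libraries, 2 anterior and 2 central, was analysed. The authors deposited raw read counts per gene symbol; per the submitters' processing notes, STAR 2.7.9a, HTSeq and DESeq2 were used with the mm10 build. The annotation and the strand setting of the counting are not given in the sources used here. Libraries held 30080925 to 33257383 counts.

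Counts were tested with edgeR 4.0.16 in R 4.3.3: filterByExpr, TMM scaling, quasi-likelihood F test on group alone, Benjamini-Hochberg adjustment over 14610 genes and a threshold of 0.05. Standard errors are the absolute log2 fold change over the square root of F. With 2 residual degrees of freedom, the spread per gene leans on that of all genes. DESeq2 1.42.0, limma 3.58.1 (voom), other scalings, filters and thresholds, halved counts, removal of erythroid markers, a replicate term and leaving out each library were alternatives. Exon lengths and positions came from GENCODE M21 (GRCm38), and all 9 symbols matched. Promoters and microRNAs came from RefSeq GRCm38.p6, the latter matching for 2 of 2 genes. Of these steps only the edgeR test was tried on simulated counts.

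The members and gene lists were chosen with earlier results of these data known. Named genes are the members, tested RNAs and neighbours of the cluster, the 2 largest called changes each way among TALE and retinoic acid genes, paralogues of the members with the largest change each way, Prrx1, Pitx1, Tbx4 and Tbx5, and the 3 genes most like Hoxb5. Gm53 and the genes named under other observations were chosen after their values were seen, and untested genes are named to account for their lists. Some genes of the lists are not reported here by name.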

Additional observations from a re-analysis of the deposited data

How the results depend on the processing

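No member changed direction under any alternative run. Hoxb3 and Hoxb6 stayed called in 16 of 16 alternatives and Hoxb5 in 15 of 15. Of the 8 HoxB calls, 4 were left at an adjusted p under 0.01 and 4 against a 1.5-fold change, and 3 with a mean count of at least 50, where only 3 members were tested. Leaving out each library in turn gave 4 to 6, with the lone library assumed to vary like the other group. DESeq2 gave 6. Over all genes, 3351 calls became 1690 at 0.01, 1035 against 1.5-fold, and 2009 to 3697 without single libraries, lowest without anterior replicate 2. In the promoter search 5 pairs of promoter and motif had a match on either strand and 2 on one strand only. Replicate numbers are shared by titles alone, and deviations of same-numbered libraries correlated at 0.0463 (Pearson) and 0.0312 (Spearman) across 14610 genes, so the samples were not treated as paired. With the replicate block 3586 genes and all 8 HoxB genes were called. The low counts of Hoxb2, Hoxb4, Hoxb5 and Hoxb7 in anterior cells limit the precision of their folds.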

Other observations

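Of 22 Polycomb, Trithorax and related genes that act on Hox chromatin, anterior cells had 2 higher and 2 lower, beside 22.9% called among all tested genes. The median log2 fold change was 0.0020 over the list and -0.0087 over all tested genes. The Polycomb genes Suz12 (log2 fold change 0.32 ± 0.07 SE, edgeR adjusted p 0.00934) and Phc1 (0.32 ± 0.07 SE, 0.0101) were higher. Phc2 (-0.74 ± 0.06 SE, 7.34e-05), also a Polycomb gene, was among those lower.

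Of 7 genes known to regulate or interact with trunk Hox expression or proteins, 5 were tested. Beside 10.7% called higher among all tested genes, 3 of these were called higher in anterior cells. Among them were Gmnn (log2 fold change 0.38, edgeR adjusted p 0.0146), which encodes geminin, and Gdf11 (0.24, 0.0293), a TGF-beta family ligand of the trunk to tail transition. Of the other miR-196 genes, Mir196b in the HoxA cluster had 34 and 10 counts in anterior and 20 and 31 in central libraries (edgeR adjusted p 0.838), and Mir196a-2 in the HoxC cluster had 0 and 0 against 0 and 4.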
